A study of Gallus gallus with 51 samples.

Results

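T-box genes encode transcription factors that share a DNA-binding domain, the T-box, and act in the patterning of embryonic tissues and in the fate of particular cell types. TBX1 is the member with an established role in the ear: in the mouse it patterns the otic vesicle, where it holds back the formation of neurons, and in people it is a main gene of DiGeorge syndrome. TBX2 sets the inner hair cell fate in the mouse cochlea, while TBX3 and TBX5 are known from limb and heart development. The T-box genes were chosen here by name, as every probe on the array whose gene name is TBX followed by a number. The rule found 13 genes among 1509 gene probes: TBX1, TBX2, TBX3, TBX4, TBX5, TBX6, TBX10, TBX15, TBX18, TBX19, TBX20, TBX21 and TBX22. Each had 1 probe printed as 2 neighbouring spots. All 13 names have a chicken gene in the RefSeq annotation of the GRCg7b assembly, in which TBX3 and TBX5 are adjacent protein-coding genes and TBX2 and TBX4 are separated by 1 gene. In the same annotation the name TBX6 has the synonym Tbx6L and TBX19 has the synonym TBXT, and which chicken transcript each human-designed probe read was not tested.

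The samples were sensory epithelia of the cochlea, in which hair cells stand among supporting cells, from White Leghorn chicks aged 10 to 21 days post hatch. Cochleae were kept in culture with 1 mM neomycin, an aminoglycoside that kills hair cells, for 24 hr and were then harvested at once (0 hr) or after 24 hr or 48 hr in neomycin-free medium. Time-matched control cochleae were handled in the same way without neomycin. The epithelia were freed from the stroma with thermolysin in both groups, and each biological sample pooled 4 epithelia of each group. Such pooled sheets still hold any hair cells that survived, and in bulk RNA fewer cells of one type cannot be told apart from less RNA per cell. Amplified RNA from neomycin and control epithelia was hybridised together, in both dye orientations, to 50-mer probes designed for human genes. There were 3 biological replicates per time, each on 4 to 8 arrays, which gave 17 arrays at 0 hr, 16 at 24 hr and 18 at 48 hr. In the titles, suffix 3 stands for neomycin RNA in Cy3 and suffix 5 for neomycin RNA in Cy5. The image headers of 6 of the 8 arrays of replicate 1 at 24 hr name "Coch" in place of control. Whether that RNA differed from the other controls was not tested.

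The 51 arrays differed widely in brightness. Median spot signal was 460 to 3636 units in Cy3 and 262 to 3190 units in Cy5, and between 2.65% and 57.9% of gene probes on an array exceeded the negative controls in one or other RNA. By biological replicate, the smallest shares were those of replicate 1 at 24 hr and at 48 hr. They were 9.87% and 5.90% of gene probes in neomycin RNA and 7.39% and 6.85% in control RNA. Against local background, replicate 1 at 0 hr was the weakest, with a mean of 55.3% of Cy3 and 68.9% of Cy5 spots at or below it. The shares were 24.9% and 55.8% in replicate 1 at 24 hr and 3.95% and 13.2% in replicate 1 at 48 hr. Of the markers of the sampled cells, SOX2 of supporting cells exceeded the negative controls on 8 neomycin and 8 control channels at 0 hr, on 12 and 13 at 24 hr and on 2 and 1 at 48 hr. POU4F3 of hair cells did so on 3 and 4, 4 and 4, and 10 and 10 channels at the same times. These markers were thus at the negative-control level on many arrays. Others of the same lists differed: HEY2 of supporting cells was above the limit on 14 neomycin and 16 control channels of 18 at 48 hr, while the hair cell gene ATOH1 was so on 4 and 5. POU4F1, a gene of sensory neurons, was above the limit on 15 and 15 of 17 channels at 0 hr, 7 and 6 of 16 at 24 hr and 18 and 18 of 18 at 48 hr. The others of the neuron or glia list were above it less often at each time. In the same order, SOX10 was so on 6 and 6, 2 and 2, and 7 and 7 channels. ISL1 was so on 2 and 1, 1 and 1, and 0 and 1. NEUROG1 had 4 and 4, 2 and 2, and 3 and 7, and NEUROD1 had 1 and 2, 3 and 1, and 7 and 7. The part of neuronal RNA in the T-box values was not tested.

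Whether a T-box transcript was seen at all was asked first. Signal was compared with 19 control probes (38 spots), which the methods describe as having no counterpart in human or chicken, and a probe was taken as above the limit on an array channel when its mean signal exceeded the 95th percentile of those spots on the same array and dye. A gene counted as detected at a time when this held for at least 80% of the channels of both RNAs together. No T-box gene was detected at 0 hr or at 24 hr, where the shares over all gene probes were 4.77% and 1.72%. At 48 hr TBX21, the regulator T-bet of T helper cells, was detected, 1 of 13 genes against 3.84% of all gene probes. With a limit of 50% of the channels, 2 genes passed at 0 hr (TBX18 and TBX21), 1 at 24 hr (TBX21) and 2 at 48 hr (TBX2 and TBX21), against 14.1%, 6.16% and 20.7% of all gene probes.

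The genes fell along a wide range of detection. TBX21 was above the limit on 31 of 51 neomycin channels and on 31 of 51 control channels, and TBX2 on 25 and 30. TBX15, a gene of skeletal and skin patterning, followed with 16 and 12, and TBX18, known in the mouse from the mesenchyme around the otic vesicle, with 13 and 13. TBX6, a gene of the paraxial mesoderm, and TBX10 each had 10 and 10. TBX5 had 7 and 6, TBX1 4 and 3, and TBX3 3 and 4. TBX19, a pituitary factor, had 2 and 1, and TBX22, a gene of palate formation, had 1 and 2. TBX4, a hindlimb gene, and TBX20, a heart gene, were never above the limit on any of 102 channels, which held for 4.84% of all gene probes. The median over the 13 genes was 13 channels and the median over all gene probes was 17.

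**Figure D1:**
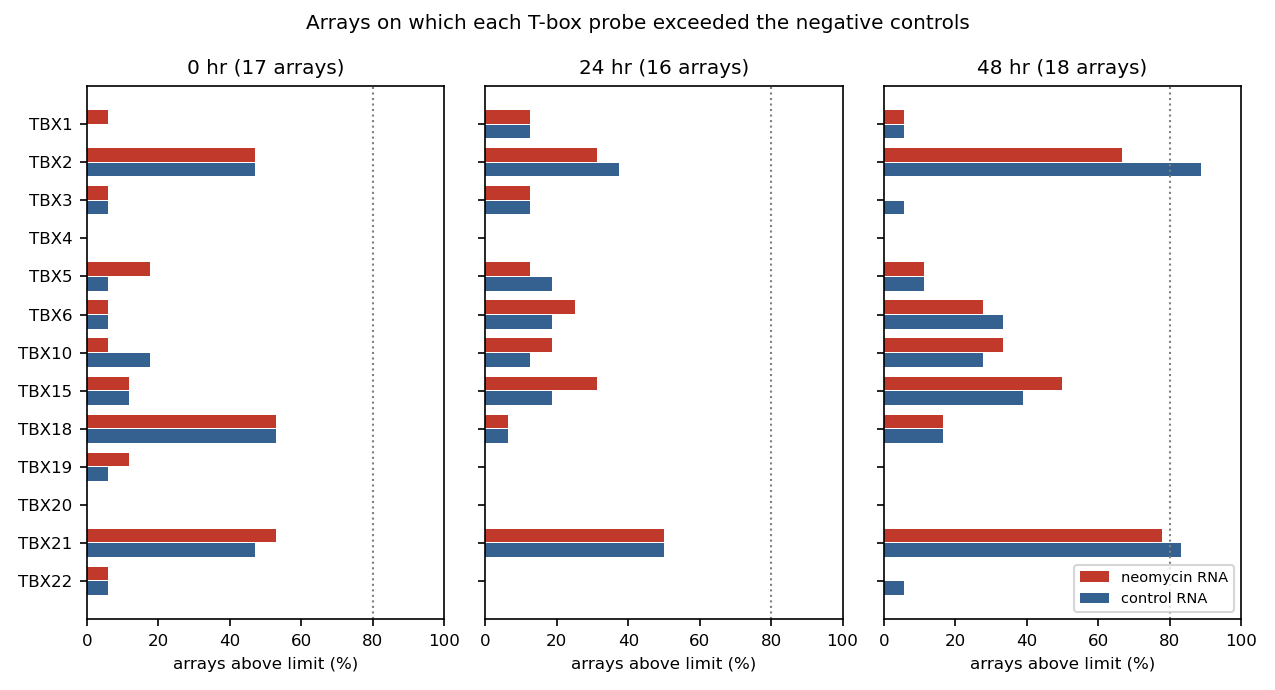
Share of arrays (%) on which each of 13 T-box probes exceeded the negative-control limit, for neomycin RNA (red, upper bar) and control RNA (blue, lower bar) at 0, 24 and 48 hr. The dotted line marks 80%. TBX2 and TBX21 had the longest bars at 48 hr, with 12 neomycin and 16 control channels of 18 for TBX2 and 14 and 15 for TBX21, while TBX4 and TBX20 had none.

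TBX2 varied more in level between biological replicates than in its ratio of neomycin over control. A level is given here as the log2 of the signal over the median negative-control spot of the same array and dye, without background correction or dye normalisation. For TBX2 the levels at 0 hr were 0.22, 1.24 and 1.14 in neomycin epithelia and 0.30, 2.47 and 1.02 in control epithelia (replicates 1, 2 and 3). At 24 hr they were 0.75, −0.29 and at least 4.91 in neomycin epithelia and 0.88, 0.62 and at least 5.27 in control epithelia, since both suffix 3 arrays of replicate 3 read 65535 units, the scanner's ceiling, in both dyes. At 48 hr they were 0.87, 2.95 and 4.68 in neomycin epithelia and 2.25, 2.91 and 4.88 in control epithelia. No other T-box probe reached the ceiling on any array. Replicate 3 at 24 hr and at 48 hr thus stood far above the rest in both RNAs, and the SD over 9 replicates was 1.90 in neomycin RNA and 1.81 in control RNA, against an SD of 0.65 for the normalised log2 ratio of neomycin over control. Between the neomycin and control levels of TBX2 Pearson's r was 0.95 and Spearman's rho 0.97 over the 9 replicates, as a description, since both RNAs of a replicate share their arrays. Over the 8 replicates without the saturated one the SDs were 1.61 for the neomycin level, 1.53 for the control level and 0.66 for the ratio, and r was 0.93 and rho 0.95. TBX21 had level SDs of 1.03 in neomycin RNA and 1.17 in control RNA and a ratio SD of 0.18, and TBX5 had 0.58, 0.62 and 0.23.

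**Figure D2:**
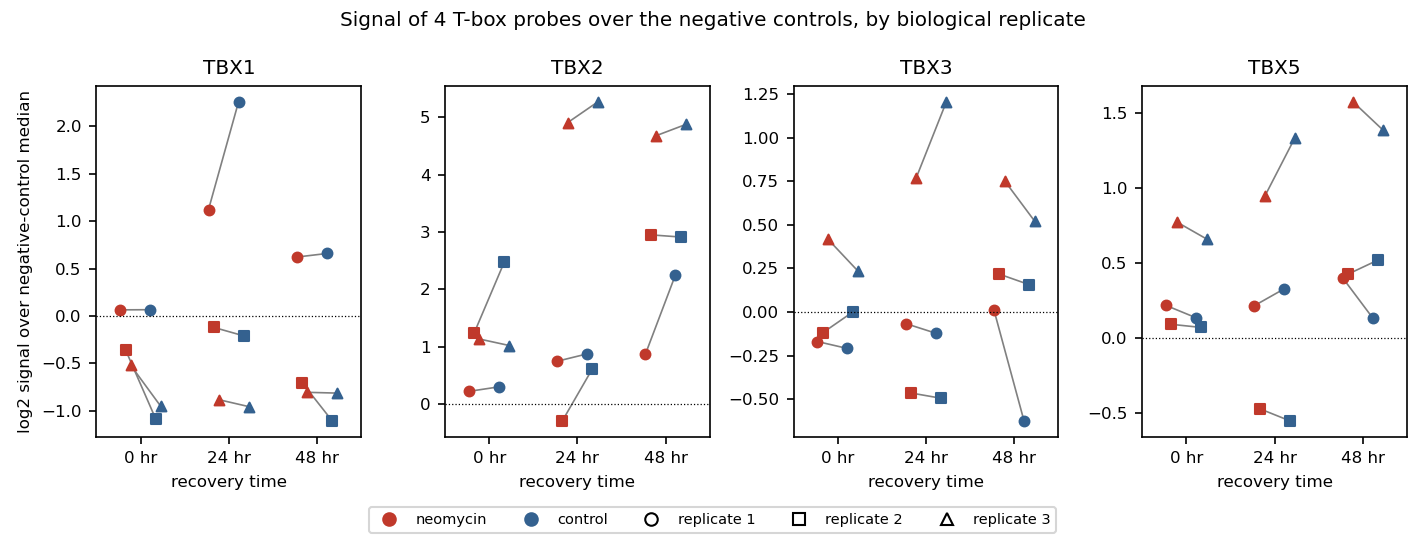
Log2 signal over the negative-control median for TBX1, TBX2, TBX3 and TBX5 in each biological replicate (circle, square and triangle for replicates 1, 2 and 3) at 0, 24 and 48 hr, with neomycin RNA (red) to the left of control RNA (blue) and each panel on its own scale. TBX2 reached at least 4.91 at 24 hr, where 2 of 4 arrays were at the scanner's ceiling in both dyes, and 4.68 at 48 hr in neomycin RNA of replicate 3, while TBX3 and TBX5 stayed under 1.6 in every replicate.

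TBX1 was close to the negative controls in most samples. Its levels were 0.06, −0.36 and −0.52 in neomycin epithelia and 0.07, −1.08 and −0.95 in control epithelia at 0 hr. At 24 hr they were 1.12, −0.12 and −0.88 in neomycin epithelia and 2.26, −0.21 and −0.96 in control epithelia. At 48 hr they were 0.62, −0.70 and −0.81 in neomycin epithelia and 0.66, −1.11 and −0.81 in control epithelia. The only replicate with levels over 1 in both RNAs was replicate 1 at 24 hr, where 2 of 8 neomycin and 2 of 8 control channels were above the limit. Its control signals on suffix 5 arrays 1, 2 and 3 were 8518, 18264 and 13713 units, against limits of 9451, 19190 and 13707. The median Cy3 signals of those arrays were 1654, 1640 and 1222 units, so that the limit lay far above the typical probe there.

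The log2 ratio of neomycin over control for TBX1 was 0.26, 0.85 and 0.03 in replicates 1, 2 and 3 at 0 hr, −0.59, 0.18 and −0.18 at 24 hr, and 0.43, 0.15 and −0.10 at 48 hr. The 3 replicates at 0 hr were thus all above 0, whereas those at 24 and 48 hr lay on both sides. Replicate 3 at 0 hr was above 0 on 1 of 4 arrays, and without that array it read −0.11. The fit across all tested probes put TBX1 at 0.38 ± 0.19 at 0 hr (SE, n = 3, 95% interval −0.05 to 0.81, limma adjusted p = 1.00), −0.20 ± 0.19 at 24 hr (interval −0.63 to 0.23, adjusted p = 0.836) and 0.16 ± 0.19 at 48 hr (interval −0.27 to 0.59, adjusted p = 0.849). None passed. The 0 hr value leaned on 1 array: replicate 2 suffix 3 array 1 read 3.29, and the other 5 arrays of that replicate read −0.04 to 1.16. On that array the neomycin signal was 2481 units against a limit of 2295, and the control signal was 649 against a limit of 4408. Without replicate 2 the 0 hr value was 0.15. It was 0.075 with suffix 5 alone and 1.11 with background subtraction and a floor, the ends of its range over the alternative settings.

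The 2 dye orientations gave TBX1 ratios of unlike sign more often than like. The suffix 3 and suffix 5 means were 0.15 and 0.37, 1.73 and −0.03, and 0.18 and −0.11 in replicates 1 to 3 at 0 hr. They were −1.13 and −0.06, 0.10 and 0.26, and −0.41 and 0.05 at 24 hr, and −0.10 and 0.97, 0.36 and −0.07, and −0.40 and 0.21 at 48 hr. They had the same sign in 3 of 9 replicates. Over all tested probes and replicates the signs were the same in 55.7% of cases, and over the 13 T-box genes in 71 of 117.

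TBX2 had ratios on both sides of 0 at each time. The log2 ratios were −0.30, −0.27 and 0.19 at 0 hr, 0.26, −1.43 and 0.36 at 24 hr, and −0.99, 0.57 and −0.20 at 48 hr. At 24 hr all 4 arrays of replicate 2 were lower in neomycin RNA, from −2.60 to −0.70, with 0 of 4 neomycin and 2 of 4 control channels above the limit. In replicate 3 the suffix 3 arrays were saturated in both dyes, so that their ratios of 0.63 and 0.50 measure no difference. The suffix 5 arrays read 0.10 and 0.20. TBX2 had a spot at the ceiling in Cy3 on 3 arrays and in Cy5 on 2. On these suffix 5 arrays its control signals, in Cy3, were 45870 and 46797 units as means of the duplicate spots. The 3 arrays include both saturated suffix 3 arrays, so that at most 1 of these suffix 5 arrays had a spot at the ceiling. A clipped control signal would raise the ratio of that array. At 48 hr all 6 arrays of replicate 2 were higher, from 0.28 to 1.11, whereas 7 of 8 arrays of replicate 1 were lower, down to −2.17. At 48 hr the arrays of those replicates did not overlap.

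The fitted TBX2 values were −0.13 ± 0.35 at 0 hr (SE, n = 3, 95% interval −0.90 to 0.65, limma adjusted p = 1.00), −0.27 ± 0.35 at 24 hr (interval −1.04 to 0.50, adjusted p = 0.895) and −0.21 ± 0.35 at 48 hr (interval −0.98 to 0.56, adjusted p = 0.908). At 24 hr the value was 0.31 without replicate 2 (the saturated arrays included), and at 48 hr it was 0.18 without replicate 1 and −0.59 without replicate 2. Without the 2 arrays saturated in both dyes replicate 3 read 0.15 and the 24 hr value was −0.34 (limma adjusted p = 0.869). The 0.15 rests on the suffix 5 arrays, and a control spot may have reached the ceiling on at most 1 of them. In replicate 1 at 48 hr the orientations differed, with suffix means of −0.11 for suffix 3 and −1.87 for suffix 5. In the other replicates the suffix 3 and suffix 5 means were 0.06 and −0.67, −0.45 and −0.08, and 0.11 and 0.27 at 0 hr, 0.20 and 0.31, −1.73 and −1.13, and 0.56 and 0.15 at 24 hr, and 0.49 and 0.65 and then −0.43 and 0.03 in replicates 2 and 3 at 48 hr. The 0.56 is the mean of the 2 saturated arrays. The same sign was seen in 7 of 9 replicates, with that one counted.

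**Figure D3:**
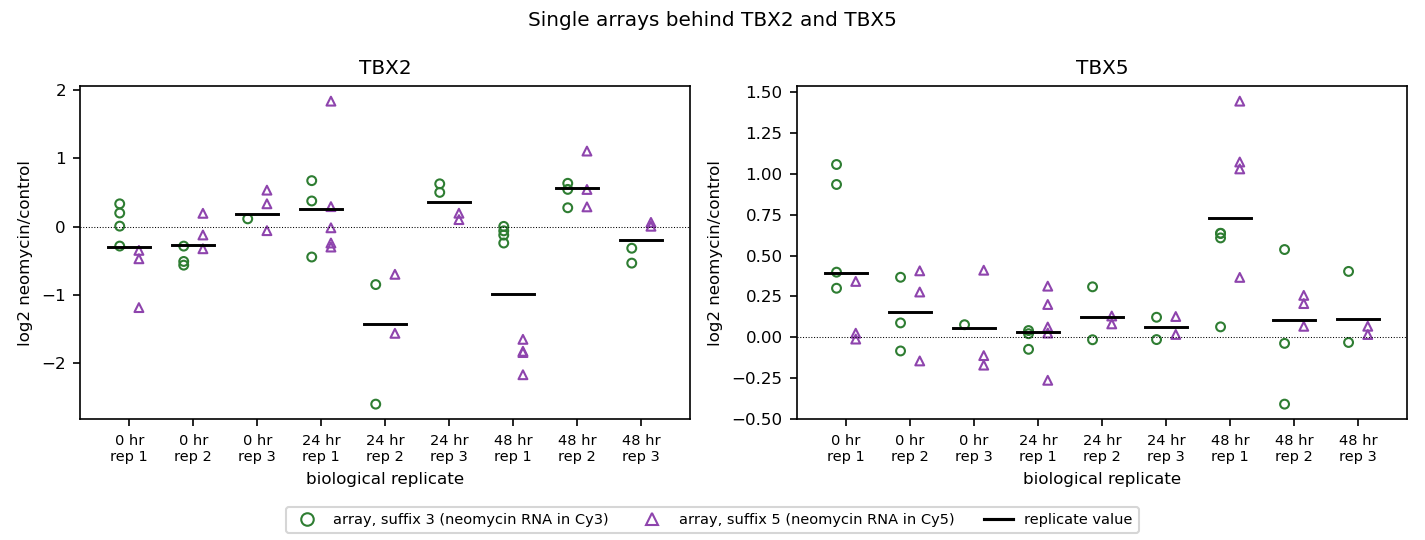
Log2 ratio of neomycin over control on single arrays for TBX2 and TBX5, by biological replicate (rep) and time, with suffix 3 arrays as green circles, suffix 5 arrays as purple triangles and the replicate value as a black line. TBX2 lay below 0 on all 4 arrays of replicate 2 at 24 hr, was saturated on the suffix 3 arrays of replicate 3 at 24 hr, and lay above 0 on all 6 arrays of replicate 2 at 48 hr, while all 9 replicate values of TBX5 were above 0, from 0.03 to 0.73.

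TBX3 stayed near the negative controls and had a single high replicate. Its levels were −0.17, −0.12 and 0.42 in neomycin epithelia and −0.21, 0.00 and 0.23 in control epithelia at 0 hr. At 24 hr they were −0.07, −0.46 and 0.77 in neomycin epithelia and −0.12, −0.49 and 1.21 in control epithelia. At 48 hr they were 0.01, 0.22 and 0.75 in neomycin epithelia and −0.62, 0.16 and 0.52 in control epithelia. Replicate 3 was the brightest at each time, and at 48 hr 0 of 18 neomycin and 1 of 18 control channels were above the limit.

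The log2 ratios of TBX3 were −0.16, 0.04 and 0.09 at 0 hr, 0.21, −0.09 and 0.06 at 24 hr, and 0.95, 0.14 and 0.15 at 48 hr. All 3 replicates at 48 hr were above 0, and replicate 1 stood apart from the others. The suffix 3 and suffix 5 means were 0.04 and −0.37, −0.04 and 0.11, and 0.03 and 0.15 at 0 hr, 0.16 and 0.26, −0.14 and −0.05, and 0.02 and 0.10 at 24 hr, and 1.51 and 0.38, −0.10 and 0.37, and 0.25 and 0.04 at 48 hr. The fitted values were −0.01 ± 0.17 at 0 hr (SE, n = 3, 95% interval −0.39 to 0.36, limma adjusted p = 1.00), 0.06 ± 0.17 at 24 hr (interval −0.32 to 0.43, adjusted p = 0.942) and 0.41 ± 0.17 at 48 hr (interval 0.03 to 0.78, adjusted p = 0.784). The 48 hr value had the smallest unadjusted limma p of the tested T-box genes at that time, 0.0352, and was 0.14 without replicate 1. In that replicate the 19 negative-control probes themselves ranged from −0.70 to 1.23, so that the TBX3 value lay inside their range.

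TBX5 was the only T-box gene whose ratio was above 0 in all 9 replicates. The log2 ratios were 0.40, 0.15 and 0.06 at 0 hr, 0.03, 0.13 and 0.06 at 24 hr, and 0.73, 0.10 and 0.11 at 48 hr. Such an agreement was found for 9 of 1282 tested probes (0.702%) in the higher direction, and it was noticed after the values were seen. Most of the size came from replicate 1 at 0 hr and at 48 hr. In replicate 1 at 0 hr 55.3% of Cy3 and 68.9% of Cy5 spots were at or below local background, the highest shares of any replicate. The suffix 3 and suffix 5 means were 0.67 and 0.12, 0.12 and 0.18, and 0.08 and 0.04 at 0 hr, −0.00 and 0.07, 0.15 and 0.11, and 0.05 and 0.07 at 24 hr, and 0.49 and 0.98, 0.03 and 0.18, and 0.18 and 0.04 at 48 hr. They had the same sign in 8 of 9 replicates.

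The fitted values of TBX5 were 0.20 ± 0.15 at 0 hr (SE, n = 3, 95% interval −0.13 to 0.53, limma adjusted p = 1.00), 0.07 ± 0.15 at 24 hr (interval −0.26 to 0.41, adjusted p = 0.932) and 0.32 ± 0.15 at 48 hr (interval −0.02 to 0.65, adjusted p = 0.784). The mean of the 3 times was 0.20 ± 0.09 (SE, n = 9, interval 0.0050 to 0.39), with an unadjusted limma p of 0.0453 and an adjusted p of 0.476. The 48 hr value was 0.11 without replicate 1. The TBX5 signal was near the negative controls: its levels were 0.22, 0.09 and 0.77 in neomycin epithelia and 0.14, 0.07 and 0.66 in control epithelia at 0 hr, 0.22, −0.47 and 0.95 against 0.33, −0.55 and 1.33 at 24 hr, and 0.40, 0.43 and 1.57 against 0.14, 0.52 and 1.38 at 48 hr. When arrays were fitted singly and those quantified on 1 date formed a random block, the TBX5 mean was 0.23 (limma adjusted p = 0.0230). No other T-box value had an adjusted p under 0.05 in any alternative setting. With that block 8.66% of all tested probes were called (2.11% higher). With the biological replicate as the random block the TBX5 mean was 0.21 (adjusted p = 0.108, 2.89% of all called). Over the 8 replicates other than replicate 1 at 48 hr the plain mean was 0.13.

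Of the 13 genes, 11 were bright enough to be tested. TBX4 and TBX22 were among the dimmest 15% of gene probes, which were left out of the fit. No T-box gene passed a Benjamini-Hochberg adjusted limma p of 0.05 in any of the 8 comparisons, and neither did any other probe (0% of 1282 at each). Before adjustment, 0 of 11 had p under 0.05 at 0 hr (2.96% of all tested probes), 0 at 24 hr (8.35%, of which 2.18% higher) and 1 at 48 hr (TBX3, 4.52%, of which 1.87% higher). For the mean of the 3 times the count was 1 (TBX5, 10.3%, with 3.28% higher and 7.02% lower), and the F test over the 3 times gave 0 (3.82%) with a smallest adjusted p of 0.879 over the T-box genes.

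The genes did not share a direction. At each of the 3 times 6 of the 11 tested genes had fitted log2 ratios above 0 and 5 below. Over all tested probes the shares above 0 were 48.1%, 50.8% and 46.7% at 0, 24 and 48 hr. The median of the T-box genes was 0.02, then 0.06, then 0.16 at the successive times, against −0.01, 0.00 and −0.02 over all tested probes. Without regard to sign the median size was 0.13, 0.14 and 0.27 for the T-box genes, against 0.10, 0.14 and 0.14 for all tested probes. One biological sample decided the 48 hr median. The T-box median was 0.43 in replicate 1 at 48 hr, against −0.05 in replicate 2 and 0.09 in replicate 3, and it was 0.06 when replicate 1 was left out. The spread in that replicate was wide for all classes of probe, with an SD of 0.67 over the 11 T-box genes, 0.57 over all tested probes and 0.57 over the negative-control probes. It was also the replicate with the smallest share of probes above the limit in both RNAs, and the part of this in the family's values was not tested.

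**Figure D4:**
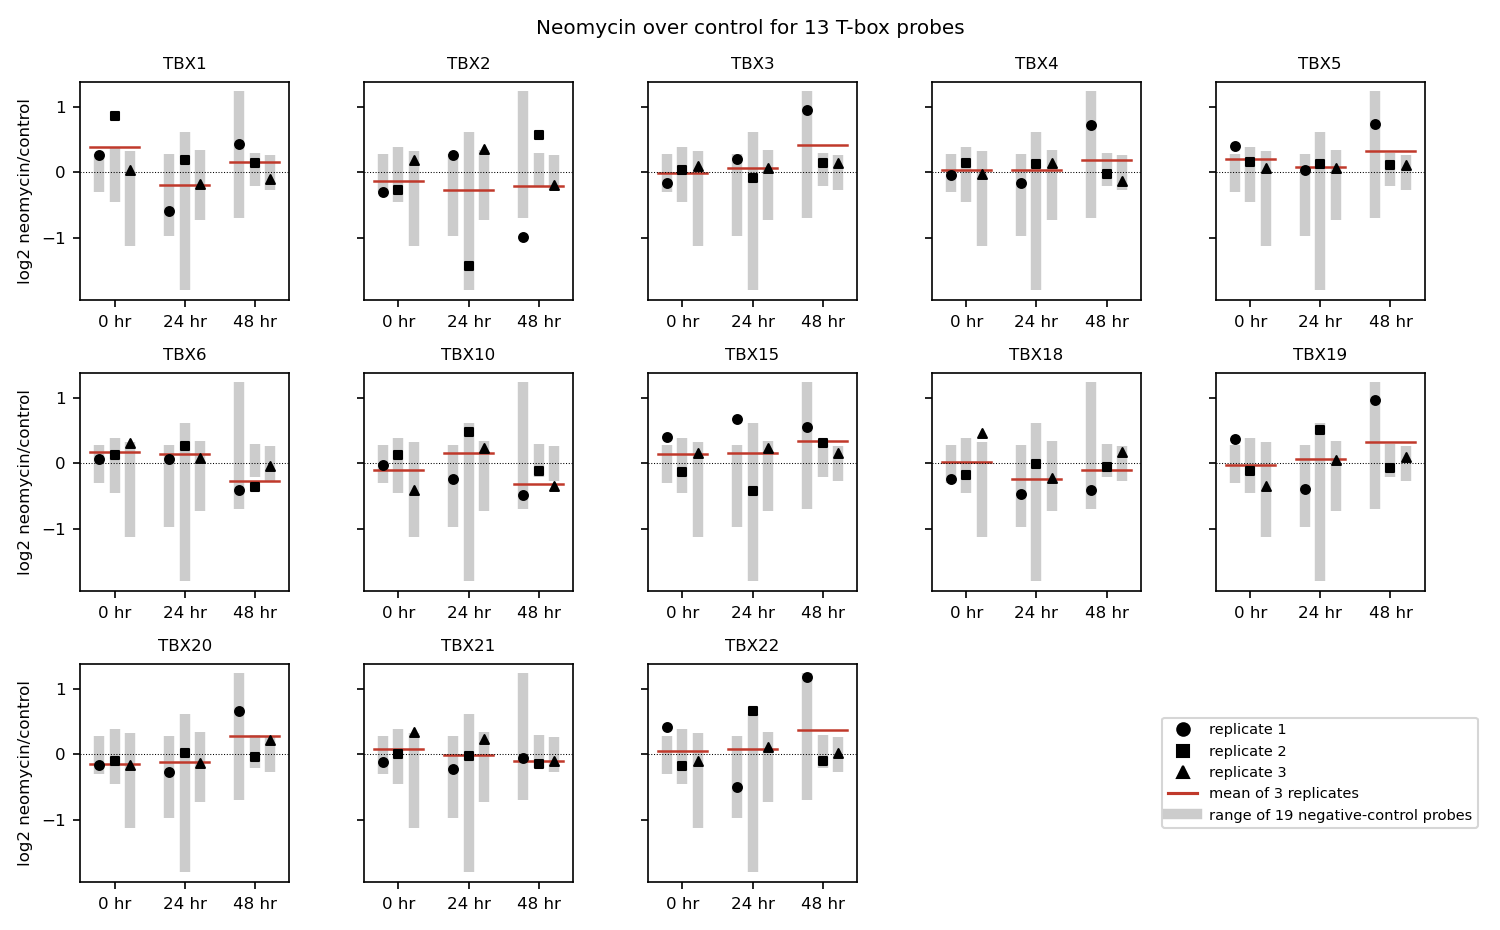
Log2 ratio of neomycin over control for the 13 T-box probes at 0, 24 and 48 hr, with biological replicates 1, 2 and 3 as circle, square and triangle, the mean of 3 replicates as a red line and, behind each point, the range of the 19 negative-control probes in the same replicate as a grey bar. Most points lie inside the grey bars, and the bar of replicate 1 at 48 hr runs from −0.70 to 1.23.

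Set against the negative controls, between 1 and 5 of the 13 genes lay outside the range of the negative-control ratios in any one replicate. In all this was 16 of 117 values (13.7%), and over all tested probes the share was 7.18% to 25.2% by replicate. Averaged over the 3 replicates, TBX1 and TBX5 lay above the negative-control range at 0 hr (−0.55 to 0.17), no T-box gene lay outside it at 24 hr (−0.80 to 0.19), and TBX3 lay above it at 48 hr (−0.36 to 0.40). The shares of all tested probes outside these ranges were 13.1%, 17.2% and 8.19%.

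Agreement of the 3 replicates in sign was seen for TBX1, TBX5 and TBX6 (higher) and TBX20 (lower) at 0 hr, where 11.8% and 11.5% of all tested probes agreed in the higher and the lower direction, 23.2% in all. At 24 hr it was seen for TBX5 and TBX6 (higher, 13.1% of all) and TBX18 (lower, 13.7%), 26.8% in all. At 48 hr it was seen for TBX3, TBX5 and TBX15 (higher, 14.4%) and TBX6, TBX10 and TBX21 (lower, 16.1%), 30.5% in all. The 0 hr agreement of TBX1 and of TBX6 hung on 1 array each. Without that array TBX1 read −0.11 in replicate 3 and TBX6 read −0.01 in replicate 1. In a count over single arrays, no T-box gene had the same sign on at least 80% of the arrays at 0 hr (2.26% of all higher and 2.89% lower). TBX18 did at 24 hr with 13 of 16 arrays lower (8.27% of all, with 4.29% higher). At 48 hr TBX3, TBX5 and TBX15 did with 15, 15 and 16 of 18 arrays higher (2.81%, with 3.90% lower). Arrays of a replicate are technical copies, and replicate 1 gave 8 of those 18 arrays, so that this count weights it most.

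Among the other members, TBX18 had the smallest p and the largest difference at 24 hr. Its replicates read −0.48, −0.01 and −0.23, all below 0, and the fitted value was −0.24 ± 0.18 (SE, n = 3, limma adjusted p = 0.774). TBX18 was above the limit on 9 of 17 neomycin and 9 of 17 control channels at 0 hr, but on 1 and 1 of 16 at 24 hr and 3 and 3 of 18 at 48 hr. Its levels nonetheless overlapped between the times, at 0.49 ± 0.26 in neomycin and 0.67 ± 0.57 in control epithelia at 0 hr, 0.08 ± 0.37 and 0.31 ± 0.63 at 24 hr, and 0.33 ± 0.53 and 0.45 ± 0.44 at 48 hr (SD, n = 3).

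TBX15 had the largest difference of the other tested members at 48 hr and in the mean of the 3 times. Its replicates read 0.40, −0.14 and 0.15 at 0 hr, 0.67, −0.42 and 0.23 at 24 hr, and 0.55, 0.30 and 0.16 at 48 hr. Only the 48 hr replicates shared a sign. The fitted 48 hr value was 0.34 ± 0.20 (SE, n = 3, limma adjusted p = 0.784) and the mean of the 3 times was 0.21 ± 0.11 (SE, n = 9, adjusted p = 0.489). At 48 hr TBX15 was above the limit on 9 neomycin and 7 control channels of 18.

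TBX21 had the narrowest spread between replicates at 48 hr, with ratios of −0.06, −0.15 and −0.10 and a fitted value of −0.10 ± 0.14 (SE, n = 3, limma adjusted p = 0.855). It was also the most often detected member, and its levels at 48 hr were 0.92, 2.76 and 3.14 in neomycin epithelia and 1.59, 3.37 and 3.23 in control epithelia. The 2 dye orientations differed more for TBX21 than for the others: the suffix 5 minus suffix 3 difference averaged −0.42 ± 0.24 (SE, n = 9, limma adjusted p = 0.911), and the suffixes had the same sign in 2 of 9 replicates. No T-box gene passed the test of this dye difference, and 0 of 11 had an unadjusted limma p under 0.05 (4.99% of all tested probes).

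TBX6 had ratios above 0 at 0 hr and 24 hr and below 0 at 48 hr. Its log2 ratios were 0.07, 0.12 and 0.31 at 0 hr, 0.06, 0.27 and 0.08 at 24 hr, and −0.41, −0.37 and −0.04 at 48 hr. The 48 hr replicates did not overlap those of either earlier time. The fitted value was 0.17 ± 0.13 at 0 hr and −0.27 ± 0.13 at 48 hr (SE, n = 3, limma adjusted p = 1.00 and 0.784). The difference was −0.41 ± 0.18 for 48 hr minus 24 hr (SE, unadjusted limma p = 0.0476, adjusted p = 0.848) and −0.44 ± 0.18 for 48 hr minus 0 hr (unadjusted p = 0.0358, adjusted p = 0.998), so that neither passed. When each replicate was left out in turn the differences ran from −0.53 to −0.34 and from −0.56 to −0.37. TBX6 was seldom above the limit at the early times, with 1 neomycin and 1 control channel of 17 above the limit at 0 hr, 4 and 3 of 16 at 24 hr and 5 and 6 of 18 at 48 hr. By replicate, the 48 hr channels above the limit were 0 and 0 of 8, 1 and 2 of 6, and 4 and 4 of 4. The ratios of −0.41 and −0.37 thus came from signal mostly at the negative-control level. Replicate 3, above the limit on every channel, read −0.04.

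Across the other differences between times the T-box genes gave little more. In 24 hr minus 0 hr, 0 of 11 genes had an unadjusted limma p under 0.05 (1.33% of all tested probes), the smallest was that of TBX1 (−0.58 ± 0.27, SE, adjusted p = 0.998), and of the other tested members TBX10 had the smallest p (0.26 ± 0.23, SE, adjusted p = 0.998), with TBX18 close to it in size at −0.25. The TBX10 value ran from 0.10 to 0.46 with a replicate left out and was −0.05 with suffix 5 alone. In 48 hr minus 24 hr 1 gene did (TBX6, lower; 3.98% of all, with 1.95% higher and 2.03% lower), and TBX10 had the largest difference of the other tested members, −0.47 ± 0.23 (SE, adjusted p = 0.848). In 48 hr minus 0 hr it was again TBX6 alone (lower; 1.48% of all, with 0.936% lower and 0.546% higher). Replicates of 48 hr and 0 hr did not overlap for TBX3 and TBX20 (higher, 2.42% of all) and TBX6 (lower, 3.67%), and those of 48 hr and 24 hr did not overlap for TBX6 alone (lower, 6.08%), while no gene did so between 24 hr and 0 hr (5.38%). TBX20 was below the limit in both RNAs throughout, so that it is given no fold. One quantification date held arrays of 2 times, 6 of replicate 2 at 48 hr and 5 of replicate 2 at 0 hr. Within it the 48 hr minus 0 hr difference was −0.44 for TBX6, 0.06 for TBX3, −0.10 for TBX5, −0.32 for TBX1 and 0.88 for TBX2.

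TBX4, TBX19, TBX20 and TBX22 were at the negative-control level on nearly all channels, so that their ratios compare signals that were mostly below the limit. TBX19 and TBX22, which lie on different chromosomes, were printed side by side on the slide and gave almost the same ratios in all 9 replicates. TBX19 read 0.37, −0.13 and −0.34 at 0 hr, −0.39, 0.51 and 0.05 at 24 hr and 0.96, −0.07 and 0.09 at 48 hr. TBX22 read 0.42, −0.18 and −0.10, then −0.50, 0.65 and 0.10, then 1.18, −0.10 and 0.02. Pearson's r was 0.98 and Spearman's rho 0.97 (n = 9), a likeness reached by 6 of 1374 pairs of neighbouring gene probes. The median r over those neighbouring pairs was 0.38, and over all pairs of tested probes it was 0.00. TBX4 and TBX20, also printed side by side, had r of 0.78 and rho of 0.43, and TBX2 and TBX3 had r of −0.21 and rho of 0.28.

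**Figure D5:**
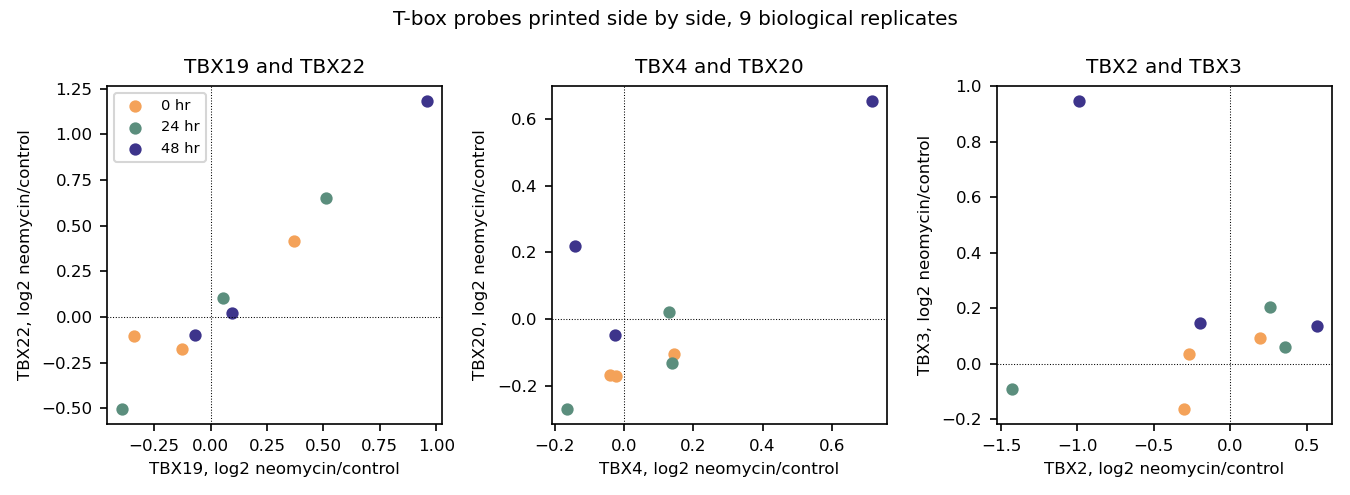
Log2 ratio of neomycin over control of pairs of T-box probes printed next to each other on the slide, 1 point per biological replicate, coloured by time (0, 24 and 48 hr). TBX19 and TBX22 lie along a line (r = 0.98), TBX4 and TBX20 share 1 high replicate at 48 hr (r = 0.78), and the brighter TBX2 does not follow TBX3 (r = −0.21).

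Over the 55 pairs of tested T-box genes the median r was −0.11, so that the family did not move as one. The adjacent genes TBX3 and TBX5 had r of 0.69 but rho of −0.23, with replicate 1 at 48 hr as the high point of both. The probes most like TBX1 over the 9 replicates were GPRC5C (r = 0.83, rho = 0.78) and EIF4A1 (r = 0.83, rho = 0.73). Those most like TBX2 were HOXA5 and SIX6 (r = 0.93, rho = 0.83 for both). TRAP150 (r = 0.98, rho = 0.90) and HOXC9 (r = 0.95, rho = 0.58), itself never above the limit, were most like TBX3, and NFATC1 (r = 0.92, rho = 0.47) and KIAA0911 (r = 0.92, rho = 0.33) most like TBX5. All values of a replicate share arrays and RNA, and where rho was far below r the likeness lay in 1 or a few replicates.

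Of T-box genes with other names the array held EOMES and TBR1, which act in the forebrain, and T (brachyury), a mesoderm gene. T was above the limit on no channel at any time, and its ratios are given no size. EOMES was above it on 7 neomycin and 8 control channels of 17 at 0 hr, 1 and 0 of 16 at 24 hr, and 6 and 6 of 18 at 48 hr, and its log2 ratio was 0.07 ± 0.22, 0.10 ± 0.52 and −0.03 ± 0.38 (SD, n = 3). TBR1 read 0.05 ± 0.34, 0.22 ± 0.18 and 0.31 ± 0.41, with 3 and 1, 2 and 1, and 3 and 2 channels above the limit. None of these passed the test at any time.

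Genes that act around TBX1 in the otic vesicle were on the array for 14 of 17 names, and 10 were tested. None passed at any time. Before adjustment GBX2 had a limma p under 0.05 at 0 hr and at 24 hr, with a ratio below 0, as had 2.03% and 6.16% of all tested probes. GBX2, a homeobox gene of the dorsal otic vesicle, was −0.97 ± 0.88 at 0 hr and −1.30 ± 1.04 at 24 hr (SD, n = 3, limma adjusted p = 1.00 and 0.588). Of 20 partners and regulators of T-box proteins 12 were on the array and 11 were tested. None passed, and before adjustment 1 was lower at 0 hr, 1 higher and 1 lower at 24 hr and 1 lower at 48 hr (2.96%, 8.35% and 4.52% of all tested probes in either direction). GATA4 was −0.39 ± 0.29 at 48 hr and GATA6 was 0.32 ± 0.12 at 24 hr (SD, n = 3, adjusted p = 0.784 and 0.588), and FOXH1 was −0.57 ± 0.50 at 0 hr and −0.56 ± 0.64 at 24 hr (adjusted p = 1.00 and 0.588). At those times GATA4 was above the limit on 9 neomycin and 9 control channels of 18, and GATA6 on 4 and 0 of 16. FOXH1 was so on 9 and 12 channels of 17 at 0 hr and on 5 and 6 of 16 at 24 hr. For the marker lists the fits gave 0 calls at any time. POU4F3 was −0.79 ± 0.80 at 48 hr and SOX2 was −0.99 ± 1.07 at 24 hr (SD, n = 3, adjusted p = 0.784 and 0.588), whereas ATOH1 was 0.00 ± 0.27 at 48 hr and HEY2 was 0.27 ± 0.33 at 24 hr. The stroma marker PMX1 was −1.02 ± 0.86 at 24 hr (limma adjusted p = 0.588), with 1 neomycin and 5 control channels of 16 above the limit. The part of a changed cell mixture in the T-box values was not tested.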

How the data were processed

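The measurements were two-colour hybridisations of neomycin RNA and time-matched control RNA from chicken cochlear sensory epithelia, on 51 arrays. The deposited scanner files were ImaGene output (file version 4.1) with spot and local background intensity per dye, not normalized. The deposited log2 matrix held neomycin over control ratios, which equalled the log2 ratio of the spot means to within 6.2e-15, without normalization. Probe sequences were not used here. Direction was taken from the dye suffix in the sample titles, which the image headers matched on 51 arrays; 1 header named Cy5 for both RNAs, and 6 named "Coch" for the control.

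Background was corrected by normexp (offset 50, on spot and background means) and dyes by loess within each array, in limma 3.58.1 (R 4.3.3), with 19 negative-control and 8 mismatch-named probes at weight 0. The identity of the control probes was read from their names. Duplicate spots, then arrays of a suffix, then suffixes were averaged to 9 biological replicates. The dimmest 15% of 1509 gene probes were left out and 1282 were tested with limma's moderated test, Benjamini-Hochberg adjusted over all 1282. Biological samples are separate pools of epithelia. Precision is that of 3 biological replicates per time; arrays have no read depth. The study's methods used lowess, an intensity cut-off set from control spots and a trend shared by at least 80% of hybridisations. They also used a 1.2-fold limit and a t-test at p under 0.05.

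Full values are given for TBX1, TBX2, TBX3 and TBX5. Of the other members each comparison names that of smallest p and that of largest size. TBX4, TBX19, TBX20, TBX21 and TBX22 are described beyond this rule, and that choice was not set in advance. For each of TBX1, TBX2, TBX3 and TBX5, the 2 most similar probes are named. Ratios are given for at most 2 genes of each related list, with FOXH1 added to the partners. FOXH1 and the markers were named after their values were seen. The members, the lists and the alternatives were chosen with earlier results of these data known. The script was tested on simulated data. Alternatives covered background, normalization, filters, dye suffix, blocks, the methods' t-test, the deposited matrix and each replicate left out. One result for a related gene is not reported here.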

Additional observations from a re-analysis of the deposited data

Results flagged for a closer look

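Single arrays stood apart from the rest of their biological replicate in 12 of 117 groups of 4 to 8 arrays, by a test that chance alone meets in about 1 of 20 groups. That rate holds for independent groups, whereas these groups share the same 51 arrays. The share over all tested probes is not given here, so the count is not read as a trait of the T-box genes. For TBX1 at 0 hr the arrays set apart were replicate 1 suffix 5 array 1 at 0.78 (others −0.03 to 0.26), replicate 2 suffix 3 array 1 at 3.29 (others −0.04 to 1.16) and replicate 3 suffix 3 array 1 at 0.18 (others −0.13 to −0.10). Without its array, replicate 2 read 0.46 in place of 0.85, and replicate 3 read −0.11 in place of 0.03.

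TBX6 read 0.46 on 0 hr replicate 1 suffix 5 array 1, the same array as for TBX1 (others −0.11 to 0.11). Without it TBX6 read −0.01 in that replicate, in place of 0.07. TBX19 read 2.43 on 0 hr replicate 1 suffix 5 array 3 (others −0.30 to 0.37), TBX10 read 1.16 on 0 hr replicate 2 suffix 5 array 3 (others −0.30 to 0.15), and TBX18 read 1.50 on 0 hr replicate 3 suffix 5 array 1 (others 0.21 to 0.27). At 24 hr, TBX3 read 0.066 and TBX15 read −0.13 on replicate 2 suffix 5 array 2 (others −0.16 to −0.13 and −0.55 to −0.49), and TBX15 read 2.27 on replicate 1 suffix 3 array 2 (others −0.12 to 1.00). At 48 hr, TBX10 read 0.63 on replicate 1 suffix 3 array 3 (others −1.13 to −0.35) and TBX15 read 1.66 on replicate 2 suffix 5 array 1 (others −0.31 to 0.23). Without that array TBX15 read 0.05 in replicate 2 at 48 hr, in place of 0.30.

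TBX6 was above 0 in all 3 replicates at 0 hr and at 24 hr and below 0 in all 3 at 48 hr. The difference was −0.41 for 48 hr minus 24 hr and −0.44 for 48 hr minus 0 hr, and in the limma fit neither passed after adjustment (0.848 and 0.998). Replicate 3, the only one above the limit on every channel at 48 hr, read −0.04 at that time.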

How the results depend on the processing

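Over 29 alternatives the one call of a T-box gene at an adjusted p under 0.05 was TBX5 (1 gene, mean of the 3 times), when the arrays of each quantification date formed a random block. The replicate block gave 0 passing genes in every comparison and family medians of 0.02, 0.06 and 0.16 at 0, 24 and 48 hr, as without it, and changed no call; same-numbered replicates did not deviate together across times (correlation −0.16 to 0.06, 0 of 9 pairs over 0.1). The median at 0 hr was 0.11 with suffix 3 alone and 0.087 with background medians (an alternative chosen after the data were seen), and at 48 hr it was −0.10 with the dimmest 30% left out, which left 7 genes. With each replicate left out in turn the medians ran from 0.016 to 0.11 at 0 hr, 0.00 to 0.06 at 24 hr and 0.06 to 0.29 at 48 hr. With 50% of the channels 2, 1 and 2 genes were detected at the 3 times, and with the highest negative-control spot as the limit 0 were detected at 48 hr. The methods' t-test at p under 0.05 and 1.2-fold named 0 T-box genes on replicate values. On single arrays treated as independent it named 6 at 48 hr (TBX3, TBX5, TBX6, TBX10, TBX15 and TBX20) and 24.7% of all tested probes. After Benjamini-Hochberg adjustment 0 T-box genes remained at 48 hr, against 41 of all 1282 tested probes. Signal limits these ratios: 2 of the 13 probes were never above the negative-control limit. TBX2 was at the scanner's ceiling in both dyes on 2 arrays, and had a spot at the ceiling in Cy3 on 3. Leaving out the 2 arrays, a step chosen after the data were seen, changed no call.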
